A study of Mus musculus with 6 samples.

Results

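The 76 genes described here carry the names Mrpl and Mrps, given to proteins of the large and small subunits of the mitochondrial ribosome. By place, Mrps18a and Mrps30 belong to the large subunit, and Mrps36 to neither. The set was chosen with earlier results of these data known. Its members were taken by name, as all array genes whose only symbol is Mrpl or Mrps followed by a number and at most 1 letter. They are 76 of the 18193 named genes. They were read by 156 probe sets, the groups of short oligonucleotides that each report 1 transcript region, and each gene is represented by its brightest probe set, which passed the filter on low signal for all 76. Gene expression was measured in ventricles of mouse embryos of the 129SvEv strain at stage E11.5, on the 1-colour Affymetrix Mouse Genome 430 2.0 array. Per the labels, 3 arrays (knockout 1, 26 and 66) came from embryos with a targeted deletion of skNAC, the muscle form of the Naca gene, which die by E12.5 with heart defects, and 3 (wild-type 13, 23 and 57) from wild-type littermates. Each array received amplified, biotin-labelled material from 500 ng of total RNA. The labels do not say whether an array held 1 heart or several, or which embryos shared a litter, so p-values measure the spread between these samples, which may be technical. A ventricle holds several cell types, and fewer cells of a type cannot be told apart from less RNA per cell.

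Mitochondria carry their own small genome, and the few proteins it encodes are membrane subunits of the respiratory chain. They are made inside the organelle by a ribosome whose RNAs come from that genome and whose proteins are all encoded in the nucleus, made in the cytosol and imported. Some of these proteins have relatives in the bacterial ribosome, and others were added in the mitochondrial lineage. The heart depends heavily on this machinery, and inherited defects in several of the genes, MRPL3 and MRPL44 among them, cause cardiomyopathy in people.

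Knockout 66 stood apart from the other arrays, with correlations of 0.928 to 0.94 over kept probe sets, where the other arrays reached 0.966 to 0.971 with their nearest. All arrays had a 2% trimmed mean of 250. Naca itself read 8595 to 9047 in knockout and 8286 to 8566 in wild-type on the brighter of its 2 probe sets, and since no source used here tells whether a probe set reads the deleted part, this does not check the labels. The 14 cardiomyocyte markers listed for this work were all above the filter, with summed signals of 156020 to 172430 in knockout and 149197 to 163153 in wild-type. The 6 red cell markers measured, of 9 listed, summed to 55339 to 74897 in knockout, highest in knockout 1, against 50760 to 61158. Of 8 liver markers 1 was above the filter. The 8 endothelial markers summed to 4407 to 4644 in knockout against 4334 to 4595, the 7 epicardial ones of 8 listed to 4647 to 5811 against 4565 to 5116, the 8 of cushion mesenchyme to 6914 to 9396 against 8470 to 9546, and the 5 nervous tissue ones of 8 listed to 812 to 1276 against 798 to 1031. The signal ratio of 3' to 5' control probe sets, a sign of RNA quality, was 2.49 to 2.57 for actin in knockout and 2.05 to 2.24 in wild-type, and 1.28 to 1.45 against 1.12 to 1.20 for Gapdh. Single markers differed more than these sums. At an unadjusted p under 0.05, where 2.51% of all genes were lower and 2.18% higher, 4 of the 8 cushion markers were lower in knockout (log2 differences of -0.51 for Col1a1, -0.35 for Col1a2, -0.61 for Lum and -0.68 for Postn) and 0 were higher, with a median of -0.30 over the 8. The epicardial marker Krt8 was 0.80 higher, and 1 cardiomyocyte and 1 red cell marker were also higher at that level. None of these passed the adjustment. The part of the markers and RNA quality in the values of the 76 genes was not tested.

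No mitochondrial ribosomal protein gene was called different between skNAC knockout and wild-type ventricles. At an adjusted p under 0.05 (limma, Benjamini-Hochberg over all genes), 0 of the 76 genes were called, and 0 of the 11661 genes tested (0%), with a smallest adjusted p of 0.974 among the 76. At an unadjusted p under 0.05 there were 2 of the 76, both higher in knockout, where 4.69% of all genes reached that level. The 3 knockout arrays did not overlap the 3 wild-type arrays in 7 of the 76, where 10.9% of all genes were so separated. Both counts are near or below their backgrounds. The differences were also small in size. On the log2(signal + 16) scale used throughout, which understates the change of dim genes, they ran from -0.45 to 0.52, and 68 of the 76 lay within 0.2 of 0. The 95% intervals of 57 genes (75%) lay wholly within 0.5 of 0, where 39.7% of all genes did, and those of all 76 within 1, where 91.6% of all genes did. The 76 genes were bright, with a median signal of 976.8 against a filter of 95.2. Their median SE was 0.14, against 0.19 over all genes. Shares within these bounds were not computed for genes of like signal, so they do not show less change than in such genes.

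**Figure D1:**
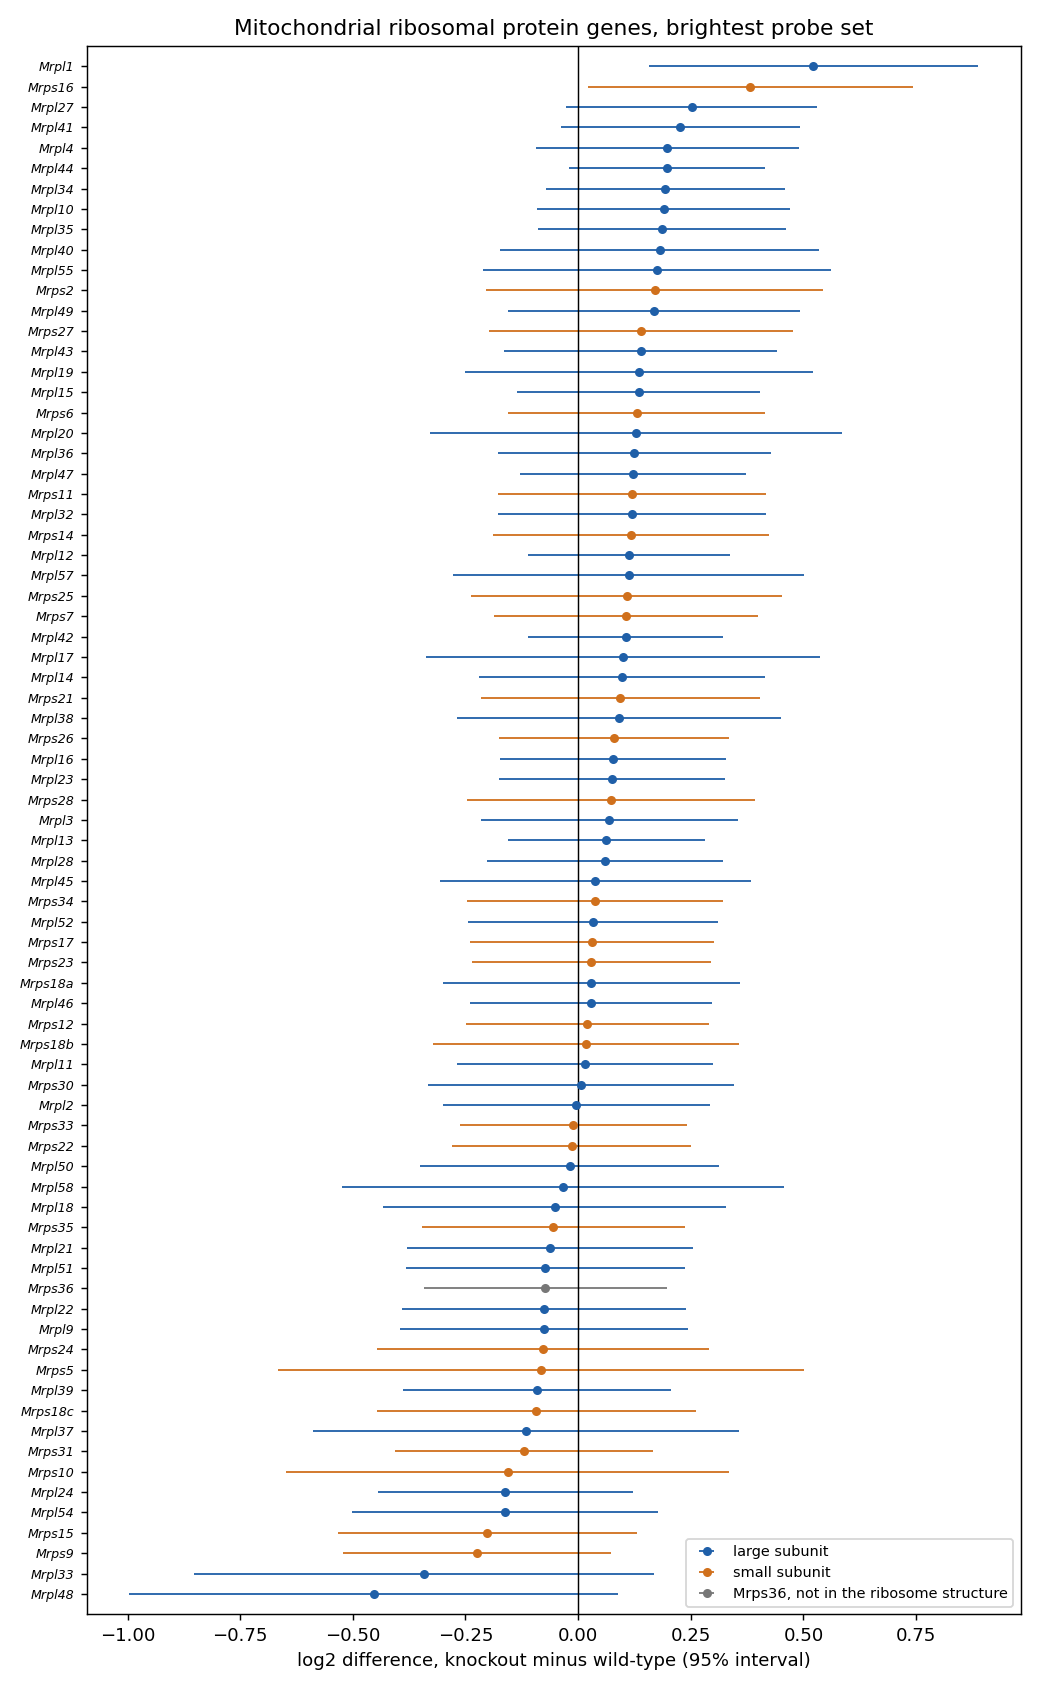
Log2 difference between knockout and wild-type (x axis, knockout minus wild-type) for each of the 76 genes (y axis), with 95% intervals from limma over 3 arrays per genotype. Points run from -0.45 for Mrpl48 to 0.52 for Mrpl1, and most intervals hold 0.

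The differences leaned slightly to the knockout side as a group. Of the 76, 51 were above 0 (67.1%) and 25 below, with a median of 0.07, while 50.4% of all genes tested were above 0 and their median was 0.0023. Among the 1890 genes whose signal lay in the middle range of these 76 (between their quartiles), 50.3% were above 0 and the median was 0.0012. The brightest genes also leaned to knockout. With signals of 1609 to 23910, a range that holds 12 of the 76, 64.7% of all genes were above 0, with a median of 0.041. From 909.8 to 1609, which holds 32 of the 76, the share was 53.3%, with a median of 0.0119. In the dimmer ranges that hold the rest it was 46% to 50%. The part of signal in the lean was not tested. The 49 genes whose proteins sit in the large subunit had a median of 0.08 with 35 above 0, and the 26 of the small subunit 0.03 with 16 above 0. By origin, 45 genes were counted as having bacterial relatives and 30 as having none. The 30 include Mrps18a and Mrps18b, although both are related to bacterial S18. The 45 had a median of 0.09 with 32 above 0, and the 30 had a median of 0.03 with 19 above 0. These are counts and medians over genes that share arrays, given as a description without a test.

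**Figure D2:**
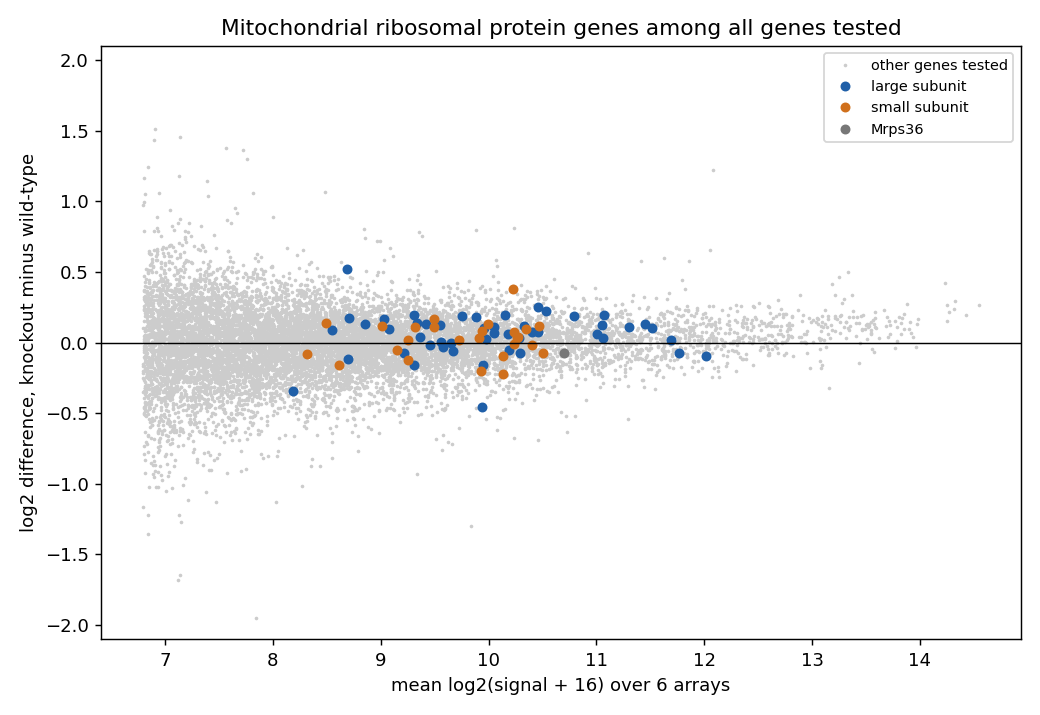
Log2 difference (y axis) against mean log2(signal + 16) over the 6 arrays (x axis) for all 11661 genes tested, with the 76 genes in colour by subunit. The coloured points sit in the middle and upper signal range and inside the spread of the grey ones.

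The lean changed with single arrays. The mean deviation of the 76 genes from their own 6-array means was 0.13, 0.05 and -0.11 (knockout 1, 26 and 66) against 0.04, 0.03 and -0.13 (wild-type 13, 23 and 57). The genotypes overlap: the lowest knockout array lies beside the lowest wild-type array. Knockout 1 was the highest of the 6 arrays for 35 of the 76 genes and the lowest for 0, while wild-type 57 was the lowest for 32 and knockout 66 for 26. The mean difference between genotypes was 0.04, and its direction turned, to -0.0091, without knockout 1 and, to -0.0017, without wild-type 57. Without knockout 66 it was 0.11, and the median went from 0.07 to 0.11. Without wild-type 57 the median was 0.012, and without knockout 1 it was 0.021.

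Large and small subunit genes had like means in every array. In the same order of arrays, the means of the large subunit genes were 0.14, 0.06, -0.11, 0.02, 0.03 and -0.13. Those of the small subunit genes were 0.11, 0.04, -0.11, 0.06, 0.02 and -0.12. Genes of like signal had the same signs within a smaller range, from -0.06 in knockout 66 to 0.04 in wild-type 13. The arrays with the lowest means of the 76 genes also had the highest array median signals, 113.9 in knockout 66 and 111.3 in wild-type 57, and knockout 1 had the lowest, 92.0. Under other scalings the range of the 6 means was -0.093 to 0.088 after quantile normalization and -0.256 to 0.253 after centring on array medians, with knockout 66 and wild-type 57 lowest in each.

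**Figure D3:**
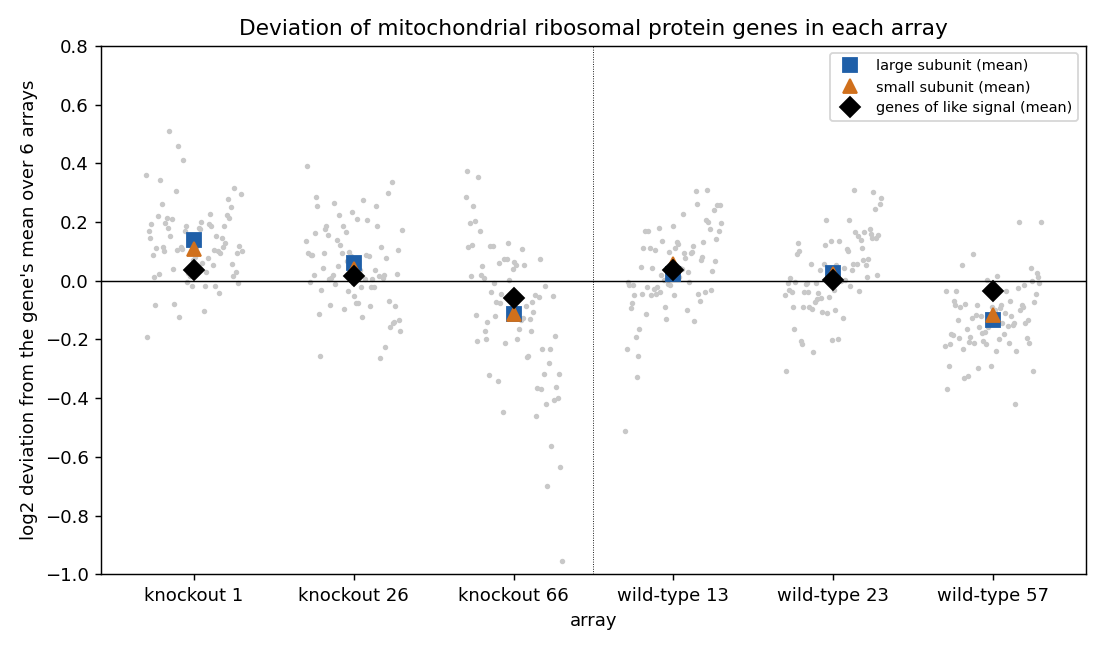
Deviation of each of the 76 genes from its mean over 6 arrays (grey points, ordered from left to right within an array by falling knockout minus wild-type difference), with means of large subunit, small subunit and genes of like signal. Knockout 66 and wild-type 57 lie lowest and knockout 1 highest, on both sides of the genotype line.

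Mrpl1 had the largest difference. It encodes the protein of the L1 stalk, the mobile arm of the large subunit by which spent tRNAs leave. Its signals were 513, 437 and 487 (knockout 1, 26 and 66) and 273, 383 and 337 (wild-type 13, 23 and 57), the order kept for every gene. All knockout arrays lay above all wild-type arrays, with wild-type 13 the lowest of the 6. The log2 difference of 0.52 ± 0.17 (SE, n = 3 per genotype) had a 95% interval of 0.16 to 0.89, with a limma p of 0.00931 unadjusted and 0.974 adjusted. A second probe set of Mrpl1 gave 0.17 ± 0.18, with signals of 253, 249 and 344 against 258, 229 and 253, and these overlap. Another one did not pass the filter.

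The promoter window of Mrpl1 is shown as that of the gene with the smallest p. It comes from RefSeq on GRCm38.p6, chr5:96209865-96210164, plus strand, and runs 5' to 3' from 250 bases before the annotated start to 50 after. In each window printed, capitals mark, on either strand, letters read by nuclear regulators of mitochondrial genes: NRF1 (GCGCA, any base, then GCGC), ETS factors (CCGGAAG) and YY1 (AAGATGGC). That of Mrpl1 holds 0 matches and so is all in lower case.
Mrpl1: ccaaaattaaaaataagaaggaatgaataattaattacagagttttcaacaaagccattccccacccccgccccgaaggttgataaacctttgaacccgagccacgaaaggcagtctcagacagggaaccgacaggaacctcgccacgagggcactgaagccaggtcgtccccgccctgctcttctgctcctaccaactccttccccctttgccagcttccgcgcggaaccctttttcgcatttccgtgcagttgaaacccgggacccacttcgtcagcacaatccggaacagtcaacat

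Mrps16, the other gene under 0.05, encodes the relative of bacterial S16, a protein of the small subunit body. Its signals were 1035, 1555 and 1538 in knockout against 1004, 954 and 1155 in wild-type. Knockout 26 and 66 were high, while knockout 1 lay among the wild-type arrays. The difference was 0.38 ± 0.16, with a limma p of 0.0395 unadjusted and 0.974 adjusted, on its only probe set. Without knockout 1 it was 0.57. It lost an unadjusted p under 0.05 without knockout 26 (0.28), knockout 66 (0.29), wild-type 13 (0.36) or wild-type 23 (0.32). With all 6 arrays it also lost it after quantile normalization (limma p 0.0579) and with eBayes without a trend (limma p 0.0891).

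**Figure D4:**
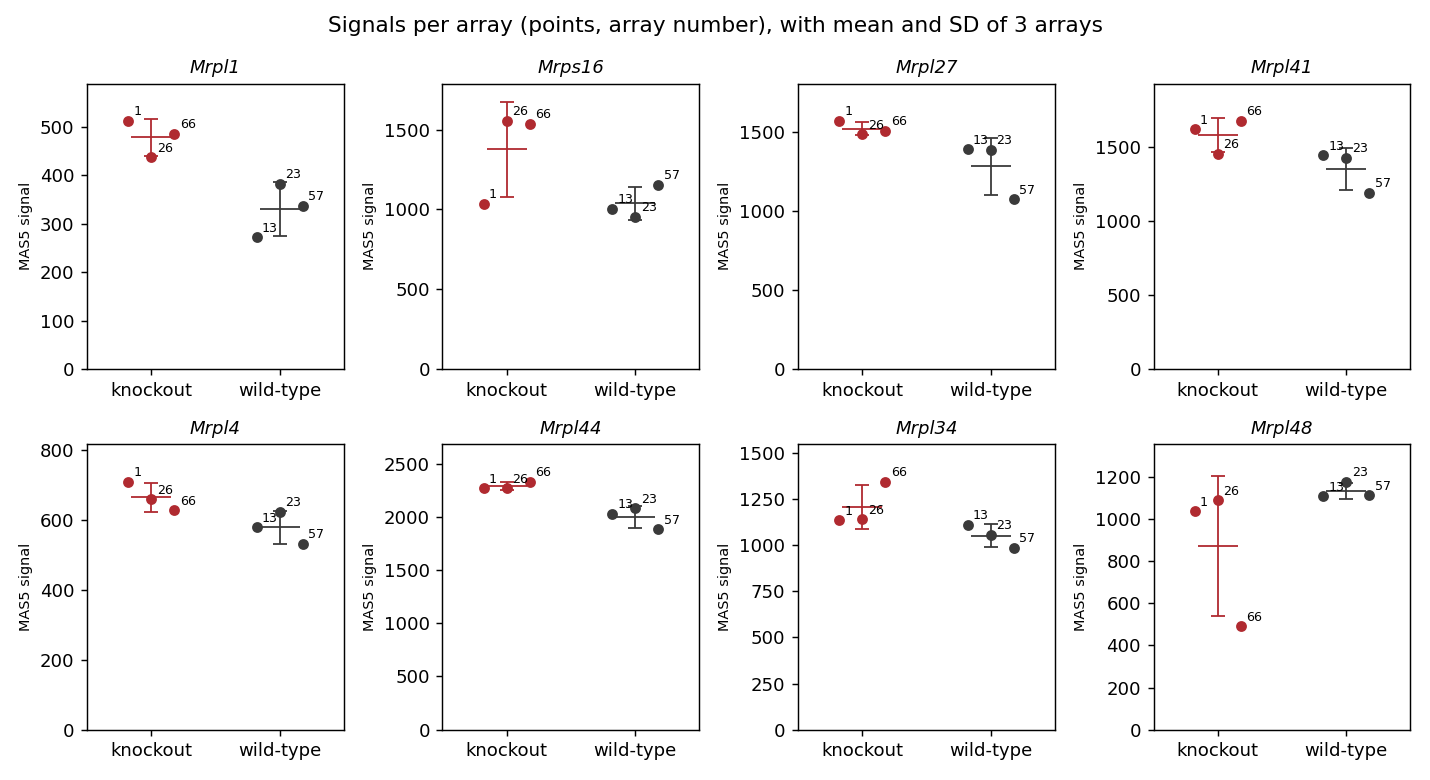
MAS5 signal (y axis, from 0) in each array for the 8 genes with an unadjusted p under 0.05 or with separated genotypes, with array numbers, the mean and the SD of 3 arrays per genotype. Mrpl48 in knockout 66 stands apart at 491, and in Mrps16 knockout 1 lies with the wild-type arrays.

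Of the 76 genes, 6 (7.89%) were separated with knockout higher, where 5.40% of all genes were. With knockout lower there was 1 (1.32%), where 5.45% of all genes were. All 7 are among the 49 large subunit genes, and 0 of the 26 small subunit genes were separated on their brightest probe set. In either direction, 10.9% of all genes were. A second kept probe set of the small subunit gene Mrps15 was separated, with knockout higher. Beside Mrpl1, the higher ones among the 7 were Mrpl27, Mrpl41, Mrpl4, Mrpl44 and Mrpl34. Mrpl27, whose bacterial relative reaches toward the peptidyl transferase centre, read 1571, 1487 and 1509 against 1390, 1387 and 1076 (0.25 ± 0.13). The knockout arrays were close together and wild-type 57 was low, and without it the difference was 0.13. Mrpl4, which lines the tunnel of the growing peptide, read 710, 660 and 628 against 581, 625 and 532 (0.20 ± 0.13), and knockout 66 and wild-type 23 nearly touched. Mrpl34, the relative of bacterial L34, read 1134, 1140 and 1344 against 1110, 1056 and 986 (0.19 ± 0.12), and its difference was 0.11 without knockout 66.

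For Mrpl41, a protein without a bacterial relative, both kept probe sets were separated. The brighter read 1620, 1456 and 1678 in knockout against 1444, 1428 and 1192 in wild-type, and the other 1550, 1418 and 1518 against 1387, 1124 and 1320. The differences were 0.23 ± 0.12 on each, and neither passed the adjustment. On the brighter one the difference was 0.14 without wild-type 57. Mrpl44, a protein with a fold like that of RNase III, read 2273, 2272 and 2333 against 2030, 2084 and 1885 on its brightest probe set (0.20 ± 0.10). Its other 2 kept probe sets gave -0.07 and -0.20, so the separation rests on 1 probe set. The same holds for Mrpl34, whose second kept probe set gave -0.17.

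Mrpl48, which sits in the central protuberance of the large subunit, was the only gene separated the other way. Its signals were 1037, 1091 and 491 in knockout against 1110, 1179 and 1113. Knockout 66 was low, and knockout 1 and 26 were just below the wild-type arrays. Its log2 difference of -0.45 ± 0.25 had a 95% interval of -0.996 to 0.09 and was -0.0905 without knockout 66. A second probe set was also separated, at 832, 776 and 857 against 901, 936 and 864, with a difference of -0.13 ± 0.12 and knockout 66 the highest knockout array. The remaining kept probe set gave -0.11. Mrpl48 has 4 annotated starts, and the window at chr7:100583081-100583380, minus strand, is printed as the one of the 4 with a match, to the ETS letters just before the start.
Mrpl48: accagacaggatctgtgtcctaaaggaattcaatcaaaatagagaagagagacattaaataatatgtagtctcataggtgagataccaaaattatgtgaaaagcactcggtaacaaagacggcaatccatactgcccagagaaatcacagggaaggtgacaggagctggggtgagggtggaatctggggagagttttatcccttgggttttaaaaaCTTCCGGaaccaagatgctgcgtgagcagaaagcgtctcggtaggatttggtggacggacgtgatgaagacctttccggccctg

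The lowest differences after Mrpl48 came from both subunits, and none of these genes was separated on its brightest probe set. Mrpl33, the relative of bacterial L33, read 341, 242 and 171 in knockout against 331, 332 and 273 in wild-type (-0.34 ± 0.23). Knockout 1 was the highest of the 6 arrays and knockout 66 the lowest, and the difference was -0.11 without knockout 66 and -0.58 without knockout 1. Mrps9, a protein of the head of the small subunit, read 1204, 1009 and 886 against 1249, 1237 and 1120 (-0.22 ± 0.13). Its other 3 kept probe sets gave 0.19, 0.35 and 0.13, on the opposite side, and on the brightest the difference was -0.12 without knockout 66 and -0.34 without knockout 1. Mrps15, the relative of bacterial S15, gave -0.20 ± 0.15 on its brightest probe set and 0.30 ± 0.12 on a second. That second one was separated, at 1163, 1011 and 1005 against 858, 833 and 880. Leaving out any 1 wild-type array made the second the brightest, and the difference then was 0.28 to 0.32, while on the first it was -0.053 without knockout 66 and -0.30 without knockout 26. Mrpl54 (-0.16 ± 0.15) and Mrpl24 (-0.16 ± 0.13) completed the 6 lowest. Mrpl54 was at -0.022 without knockout 66, and Mrpl24 at -0.079 without wild-type 23.

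Probe sets of 1 gene often differed in sign. Of 36 genes with more than 1 kept probe set, 21 had all on one side of 0 and 15 did not. The widest gap was in Mrpl49, a large subunit protein without a bacterial relative. Its brightest probe set gave 0.17 ± 0.15, with 611, 496 and 514 against 524, 437 and 475, and 0.079 without knockout 1 or 0.11 without wild-type 23. The second read 295, 284 and 120 in knockout against 389, 397 and 399 in wild-type, separated, with a difference of -0.82 ± 0.28. Mrps5, relative of a bacterial protein at the mRNA entry, had 4 kept probe sets between -0.24 and 0.43. Mrpl15, named here after its values were seen, had 6 kept probe sets, the most of any of the 76, and all 6 were above 0, from 0.08 to 0.50. Of these, 1 was separated, at 1538, 1860 and 1521 against 1284, 1346 and 1275 (0.32 ± 0.12), and the brightest gave 0.13 ± 0.12.

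Grouped by place in the ribosome, the L1 stalk was represented by Mrpl1 alone, at 0.52, and the regions with 3 or more genes had medians between -0.08 and 0.11. The L7/L12 stalk, where translation factors bind, had all 3 of its genes above 0: Mrpl10, its anchor, at 0.19 ± 0.13, Mrpl12, the stalk protein that is also known to bind the mitochondrial RNA polymerase, at 0.11 ± 0.10, and Mrpl11, at the base, at 0.015 ± 0.13. For Mrpl12 the arrays overlapped, at 2699, 2767 and 2385 against 2431, 2498 and 2316, and the difference was 0.072 without knockout 26 and 0.18 without knockout 66. The 4 genes around the peptidyl transferase centre had a median of 0.07, and Mrpl3 among them read 1094, 1037 and 1072 against 1188, 904 and 978 (0.07 ± 0.13). The 8 genes along the peptide tunnel and its exit had a median of 0.09, with 6 above 0, and the 6 of the central protuberance 0.06, with 4 above 0. In the small subunit, 2 of the 7 genes of the head were above 0, with a median of -0.06. Mrps7, relative of the bacterial head protein S7, was 1 of these 2, at 0.11 ± 0.13, with 0.054 without wild-type 57 and 0.17 without knockout 66. Of the 3 genes at the decoding and mRNA entry side 1 was above 0, Mrps12, whose bacterial relative checks codon and anticodon pairing, at 0.021 ± 0.12. No region held a called gene.

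The S18 family holds 3 relatives of a single bacterial protein. Mrps18c takes the place of bacterial S18, Mrps18b sits elsewhere in the small subunit, and Mrps18a is found in the large subunit in spite of its name. Mrps18a read 1142, 1488 and 1124 in knockout against 1440, 1124 and 1110 in wild-type (0.029 ± 0.15). Mrps18b read 629, 690 and 494 against 554, 642 and 580 (0.018 ± 0.15), and Mrps18c 1325, 993 and 942 against 1256, 1256 and 955 (-0.09 ± 0.16). The arrays overlapped in all 3, and their 95% intervals, -0.30 to 0.36, -0.32 to 0.36 and -0.45 to 0.26, hold no difference past 0.5. Mrps36, which shares the name but is now counted as a subunit of the oxoglutarate dehydrogenase complex, gave -0.07 ± 0.12.

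The windows of the 3 are shown because all hold ETS letters, at different places. Mrps18a lies at chr17:46110754-46111053, plus strand, Mrps18b at chr17:35916391-35916690, minus strand, and Mrps18c at chr5:100798509-100798808, plus strand.
Mrps18a: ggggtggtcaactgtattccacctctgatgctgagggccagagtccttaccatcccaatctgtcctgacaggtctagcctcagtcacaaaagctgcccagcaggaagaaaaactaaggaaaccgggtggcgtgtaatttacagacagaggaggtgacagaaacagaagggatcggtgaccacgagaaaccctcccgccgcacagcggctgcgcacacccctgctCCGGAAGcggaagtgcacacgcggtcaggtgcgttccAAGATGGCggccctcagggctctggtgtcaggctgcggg
Mrps18b: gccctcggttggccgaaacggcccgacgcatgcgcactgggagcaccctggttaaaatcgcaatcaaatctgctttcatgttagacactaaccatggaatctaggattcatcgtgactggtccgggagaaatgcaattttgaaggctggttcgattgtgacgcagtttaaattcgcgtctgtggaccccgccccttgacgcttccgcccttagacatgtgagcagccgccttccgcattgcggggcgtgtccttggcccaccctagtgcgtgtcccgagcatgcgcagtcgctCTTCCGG
Mrps18c: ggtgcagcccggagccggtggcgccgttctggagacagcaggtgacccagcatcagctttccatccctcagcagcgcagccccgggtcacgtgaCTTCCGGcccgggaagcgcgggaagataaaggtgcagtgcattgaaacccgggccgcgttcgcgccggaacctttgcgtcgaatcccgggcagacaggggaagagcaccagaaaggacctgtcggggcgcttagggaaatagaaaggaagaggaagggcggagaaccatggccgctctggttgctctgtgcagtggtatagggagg
Mrps18a holds ETS letters before its start and YY1 letters just after it. Mrps18b holds ETS letters at the end of its window and Mrps18c farther upstream. Mrps18b and Mrps18c stand head to head with Ppp1r10 and Helq, 756 and 159 bases away.

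Other parts of mitochondrial gene expression were read from 5 lists of 66 genes outside the 76, chosen with earlier results of these data known, of which 53 were tested. None was called, 23 were above 0 and 30 below, and the median was -0.03. The 11 translation factors had a median of -0.03 with 4 above 0, and the 13 mitochondrial aminoacyl-tRNA synthetases -0.0065 with 6 above 0. The 13 assembly and rRNA modification genes had a median of -0.05 with 6 above 0, the 11 of mitochondrial DNA upkeep and transcription 0.014 with 6 above 0, and the list of mitochondrial ribosome proteins of other names, which also holds the membrane insertase Oxa1l, -0.08 over 5 genes with 1 above 0. For comparison, 43 cytosolic ribosomal protein genes had a median of 0.12 with 36 above 0, and 35 complex I subunits -0.0063 with 14 above 0. These medians were set side by side without a test of their differences.

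At an unadjusted p under 0.05, where 2.18% of all genes were higher and 2.51% lower, the 5 lists held 1 gene higher and 3 lower. Mrrf, the factor that takes the mitochondrial ribosome apart after each protein, read 518, 463 and 469 in knockout against 584, 614 and 593 in wild-type (-0.30 ± 0.13). The genotypes did not overlap. Wars2, the mitochondrial tryptophanyl-tRNA synthetase, read 204, 154 and 197 against 228, 300 and 244 (-0.44 ± 0.20), but a second kept probe set gave 0.13. Top1mt, the mitochondrial topoisomerase, read 92.5, 62.3 and 95.5 against 129, 121 and 162 (-0.63 ± 0.28), and its knockout mean was under the filter of 95.2. Dguok, a kinase that supplies deoxynucleotides for mitochondrial DNA, read 211, 226 and 297 against 170, 124 and 92.2 (0.87 ± 0.25). Each had an adjusted p of 0.974 in limma.

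Some features that the choice by name did not use were more frequent in the promoters of these genes than in those of all genes tested. Each was still held by a minority of them. Windows from 250 bases before to 50 after the annotated start, from RefSeq on GRCm38.p6, were found for 67 of the 76 genes, in 73 windows since some genes have several starts. Both strands were searched. The ETS letters CCGGAAG were in 34.2% of the 73 windows, against 16.2% of windows of all genes tested and 8.86% of all windows in the table. The YY1 letters AAGATGGC were in 16.4%, against 4.19% and 2.75%, and the NRF1 letters in 16.4%, against 9.45% and 4.60%. Windows with both ETS and YY1 letters numbered 3, and in 0 of them did the matches overlap, although the end of the first and the start of the second can share letters.

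Other letters were in the windows of these genes at shares nearer to, or below, those of all genes tested. The Sp1 letters GGGCGG were in 53.4% against 60.4% of windows of genes tested, the CCAAT box (CCAAT) in 39.7% against 37.2%, the E-box (CACGTG) in 9.59% against 9.68% and the TATA box (TATAAA) in 6.85% against 8.03%. Over all windows in the table these were 35.7%, 37.4%, 7.15% and 13.6%. Of the ETS matches in the 73 windows, 22 of 29 (75.9%) lay within 50 bases of the start, against 59.2% in genes tested. The YY1 matches gave 9 of 12 (75%) against 60.7%, and the NRF1 matches 10 of 18 (55.6%) against 52.4%. A match is a run of letters, not a shown binding site, and windows of 1 gene or of a head-to-head pair share sequence. The median GC content was 58.7% in the 73 windows and 60.3% in those of genes tested. The median ratio of observed to expected CG pairs was 0.82, against 0.74 in genes tested and 0.38 over all windows. The NRF1 and ETS letters hold CG pairs, and the part of this ratio in their shares was not tested.

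Many of these genes start back to back with another gene. A start on the opposite strand, pointing away, lay within 1000 bases for 25 of the 67 genes (37.3%), against 18.9% of genes tested and 12.3% of all genes in the table. The partners were of many kinds, Tcp1, Psma2 and Hira among them. Those with a mitochondrial role were not counted against a background, and the examples here were chosen after the partners were seen: Mrps12 stands beside Sars2, the mitochondrial seryl-tRNA synthetase (147 bases), Mrpl43 beside Twnk, the mitochondrial DNA helicase (116 bases), and Mrpl47 beside the complex I gene Ndufb5 (308 bases). The log2 differences of these pairs were 0.021 and 0.137, 0.14 and -0.155, and 0.12 and 0.133. Mrpl46 and Mrps11, chosen for printing after their values were seen, were the only pair of the 25 genes in which both belong to the 76, 1 from each subunit, with starts 42 bases apart.

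**Figure D5:**
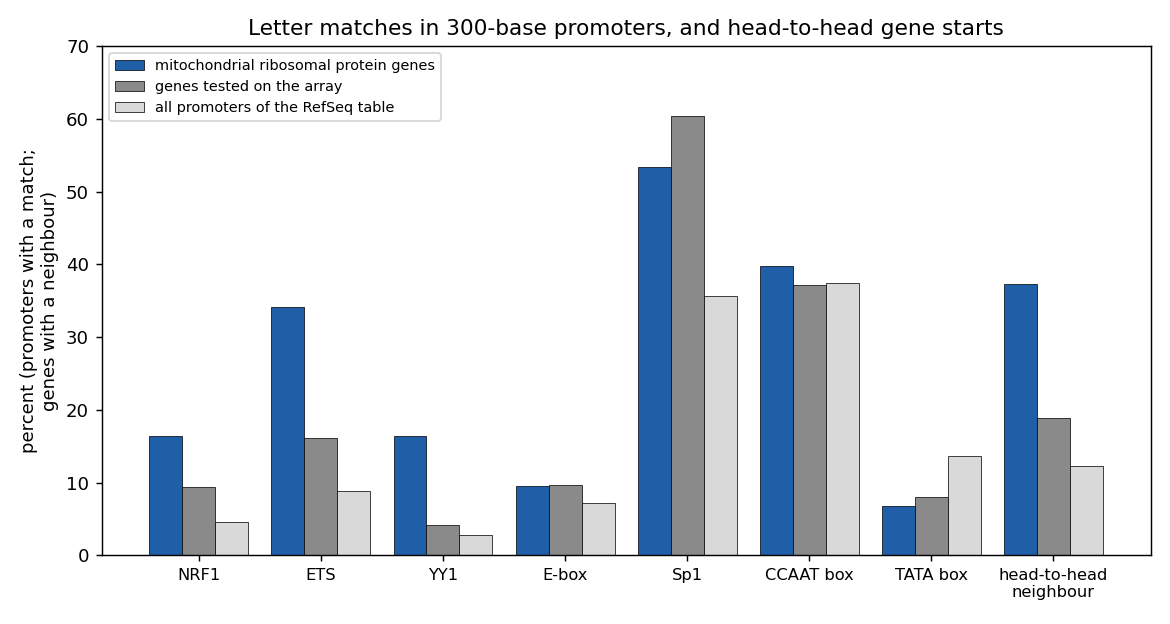
Percent (y axis, from 0) of 300-base promoter windows with each set of letters, and of genes with a head-to-head neighbour within 1000 bases, for the mitochondrial ribosomal protein genes, genes tested on the array and all entries of the RefSeq table. The blue bars stand above both grey bars for NRF1, ETS, YY1 and head-to-head starts, and by a small margin for the CCAAT box.

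The windows of this pair are shown because they overlap by 141 bases, read from opposite strands. Mrpl46 lies at chr7:78783040-78783339, minus strand, and Mrps11 at chr7:78782881-78783180, plus strand.
Mrpl46: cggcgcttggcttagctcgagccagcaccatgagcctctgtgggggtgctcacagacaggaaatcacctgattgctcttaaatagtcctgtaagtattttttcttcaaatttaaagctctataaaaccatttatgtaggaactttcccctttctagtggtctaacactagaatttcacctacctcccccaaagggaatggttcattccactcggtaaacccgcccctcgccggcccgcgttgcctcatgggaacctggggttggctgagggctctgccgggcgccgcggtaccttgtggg
Mrps11: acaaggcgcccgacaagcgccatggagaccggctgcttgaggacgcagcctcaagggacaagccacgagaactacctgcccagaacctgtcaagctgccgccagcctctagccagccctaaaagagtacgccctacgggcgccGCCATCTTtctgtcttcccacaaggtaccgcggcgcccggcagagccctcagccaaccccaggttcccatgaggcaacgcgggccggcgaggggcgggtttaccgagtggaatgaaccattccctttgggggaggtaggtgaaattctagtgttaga
Mrpl46 read 977, 994 and 1028 in knockout against 1057, 1022 and 871 in wild-type (0.028 ± 0.12), and Mrps11 515, 508 and 545 against 516, 467 and 457 (0.12 ± 0.14). A second kept probe set of Mrps11 gave -0.29 ± 0.28. In both genes the genotypes overlapped. The YY1 letters of Mrps11, on the opposite strand, lie outside the shared stretch.

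Across the 67 genes with a window, the medians with and without these letters differed in either direction. The 12 genes with YY1 letters had a median of 0.11 with 10 above 0, and the 55 without 0.03 with 34 above 0. The 25 genes with ETS letters had a median of 0.029 with 15 above 0, and the 42 without 0.09 with 29 above 0. For the NRF1 letters the medians were 0.10 over 12 genes and 0.03 over 55. These are descriptions over genes that share arrays, without a test.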

How the data were processed

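Expression was measured in 6 ventricle samples, 1 array each, grouped by the labels into 3 knockout and 3 wild-type. The authors deposited 1 linear-scale intensity per probe set. The submitters' processing notes name GCOS and MAS5, whose versions were not found in the sources used here. Precision is limited by the number of arrays. The median SE of the 76 genes was 0.14, against 0.19 over all genes.

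Intensities were transformed as log2(intensity + 16). Probe sets were kept above the median of all non-control ones, a signal of 95.2, which left 22518 of 45101 and 11661 genes with 1 symbol. Of the 156 probe sets of the 76 genes 132 were kept, at least 1 for each gene. The fit was made for every kept probe set with limma 3.58.1 (R 4.3.3; lmFit and eBayes with trend, two-sided). P-values of the brightest probe set per gene were adjusted by Benjamini-Hochberg over all genes. The fit was tested on simulated data. Gene names are those of the platform annotation, and all 76 matched RefSeq by Entrez identifier. Plots used Python 3.11.15 with Matplotlib 3.10.9.

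The genes, lists, naming rule and tests were chosen with earlier results of these data known. The rule named genes with an unadjusted p under 0.05 or separated genotypes, the 6 highest and 6 lowest differences, the S18 family, Mrpl10, Mrpl11, Mrpl12, Mrps12, Mrps7, Mrpl3 and genes whose kept probe sets differ in sign with 1 past 0.3, and, of the other lists, genes with an unadjusted p under 0.05. Mrpl15, Mrpl46 and Mrps11 were added after their values were seen, and Mrps36 for its name. The grouping by place in the ribosome was written by hand and corrected for Mrpl4 and Mrps2 after the values were seen. The alternatives were other pseudocounts, filters, scalings, fits and probe set rules, and each array left out in turn. There was no batch label to test.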

Additional observations from a re-analysis of the deposited data

How the results depend on the processing

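Under the 16 alternatives, 0 of the 76 genes were called in limma in each, where of all genes 8 were called with array quality weights, 2 without knockout 1, 1 without knockout 66 and 0 otherwise. The median difference stayed above 0, between 0.012 and 0.11. The number at an unadjusted p under 0.05 was 1 after quantile normalization (5.03% of all genes) and with eBayes without a trend (4.18%), and 6 with array quality weights, when 12.1% of all genes reached it. With 1 array left out it ran from 1 (without wild-type 13 or 23, when 3.52% and 2.8% of all genes reached it) to 6 (without knockout 66, 7.41%), and it was 5 without knockout 1 (7.18%). The number with separated genotypes was 3 after centring on array medians, when 8.22% of all genes were separated, and 12 to 19 with 1 array left out, highest without knockout 66, when 18% to 24.9% of all genes were separated, since fewer arrays separate more easily. When a gene's kept probe sets were averaged, Mrpl44 was at -0.023, Mrps15 at 0.0485, Mrps9 at 0.11 and Mrpl49 at -0.33, as their probe sets differ in sign. Mrpl11 was at -0.019 after quantile normalization and Mrps5 at 0.15 with array weights; the cause was not tested. With 1 array left out, the sign also turned within these ranges: Mrps15 -0.30 to 0.32, Mrps18a -0.10 to 0.15, Mrps18b -0.082 to 0.15, Mrps18c -0.24 to 0.0006, Mrpl11 -0.078 to 0.15, Mrps12 -0.029 to 0.069, Mrpl3 -0.014 to 0.18 and Mrps5 -0.25 to 0.25. Of the 24 genes named by the rule, 13 kept their sign under every alternative that gave a value. No paired analysis was possible because the genotypes share no replicate number. Mrps12 had no value once probe sets of the kinds _x_at and _s_at were dropped.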
